A study of Homo sapiens with 14 samples.

Results

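The ZNF windows are the promoter windows of 487 human genes whose symbols begin with ZNF and a number, the name given to genes for zinc finger proteins that have no other established name. They were chosen by accession and symbol alone, as every window with an NM_ (protein-coding) RefSeq accession and such a symbol, and no measured value entered the choice. They make up 487 of the 28159 windows counted, 240 of them on chromosome 19 and 247 on 20 other chromosomes. Another 30 protein-coding ZNF genes were listed with a noncoding (NR_) accession and are therefore not included.

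The study measured RNA polymerase II that carries phosphate on Ser5 of its tail, a form found mainly at gene starts, by ChIP-seq, the sequencing of DNA recovered with an antibody, in wild-type HCT116 cells, a colorectal carcinoma line. Cells were electroporated with water or with 10 µM of a bivalent stapled peptide, then held for 3 h with 0.1% DMSO as solvent control or with 10 µM Nutlin3a, with 200 nM more peptide in the medium of the peptide cells. Nutlin3a frees p53 from MDM2 and stabilises it, and by the series' title the peptide blocks the binding of p53 to Mediator. DMSO and Nutlin3a had 2 ChIP libraries each without peptide and 1 each with it (both of the latter from replicate 2), and each of the 4 conditions had 2 inputs, chromatin sequenced without immunoprecipitation.

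Most ZNF genes encode C2H2 zinc finger proteins, in which an array of fingers reads a DNA sequence. Many of them also carry a KRAB domain, which recruits TRIM28 (KAP1) and through it the histone methyltransferase SETDB1 and HP1 proteins, and so silences the bound site. Their targets are in large part retrotransposons. The KRAB family grew by tandem duplication, and on chromosome 19 its genes lie side by side in long clusters, while the genes scattered on other chromosomes are more mixed in age and role and include general activators and proteins that bind RNA.

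The clusters can be read in the promoter sequences. RefSeq (GRCh38.p14) listed a promoter with its start inside the counted window for 388 of the 487 genes, 203 on chromosome 19 and 185 elsewhere. A count of every word of 9 bases in the 300 bases from 250 before to 50 after the start, on either strand, put TCCAATCAG (CTGATTGGA on the other strand) at the top of the words over-represented on chromosome 19. This word contains the CCAAT box. It was chosen after the promoters had been compared, and a match is a description of letters, not a bound site. The word was present in 50 of 203 ZNF promoters on chromosome 19 (24.6%), in 13 of 185 elsewhere (7.03%), in 0.528% of the 12888 promoters of other NM_ windows and in 0.991% of all 16955 windows with a promoter entry. CCGGAAG, the core letters of an ETS-type site, which read CTTCCGG on the other strand, was present in 44.8% of ZNF promoters on chromosome 19 and 32.4% elsewhere, against 13.7% of all promoters. The following stretches run 5′ to 3′ on the gene's strand, from 130 bases before the start through the 20 bases from it on, with both words in capitals. They come from 5 clusters of the short arm of chromosome 19. ZNF77 had the highest level in its cluster, and each of the other 4 had the highest level among the promoters of its cluster that hold both words, so these are chosen examples of how the 9-base word is placed and repeated.
ZNF77: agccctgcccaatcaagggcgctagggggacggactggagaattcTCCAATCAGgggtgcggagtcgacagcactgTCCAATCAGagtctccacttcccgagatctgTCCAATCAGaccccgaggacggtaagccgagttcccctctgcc
ZNF20: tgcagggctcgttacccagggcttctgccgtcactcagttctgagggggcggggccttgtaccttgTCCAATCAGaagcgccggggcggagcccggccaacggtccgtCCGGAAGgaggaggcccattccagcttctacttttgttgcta
ZNF486: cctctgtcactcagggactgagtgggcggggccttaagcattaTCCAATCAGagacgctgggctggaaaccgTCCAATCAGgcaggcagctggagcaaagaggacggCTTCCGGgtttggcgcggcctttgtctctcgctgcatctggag
ZNF430: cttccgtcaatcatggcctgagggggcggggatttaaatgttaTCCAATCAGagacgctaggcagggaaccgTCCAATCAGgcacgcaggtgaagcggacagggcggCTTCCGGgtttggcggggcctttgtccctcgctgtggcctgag
ZNF724: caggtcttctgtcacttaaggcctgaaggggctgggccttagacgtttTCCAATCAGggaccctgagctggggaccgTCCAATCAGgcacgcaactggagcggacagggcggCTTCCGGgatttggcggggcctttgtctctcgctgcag

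These stretches lie at chr19:2944952-2945101 (ZNF77, minus strand), chr19:12140331-12140480 (ZNF20, minus strand), chr19:20167084-20167233 (ZNF486, plus strand), chr19:21020527-21020676 (ZNF430, plus strand) and chr19:23250375-23250524 (ZNF724, minus strand). ZNF77 holds 3 copies of the 9-base word in this stretch, ZNF486, ZNF430 and ZNF724 hold 2 each, and ZNF20 holds 1. The next 4 are shown for contrast. ZNF766, from a long-arm cluster, has the ETS-type word and not the 9-base word. ZNF580 and ZNF446 had the highest polymerase levels among chromosome 19 members, and ZNF143 was among the highest elsewhere.
ZNF766: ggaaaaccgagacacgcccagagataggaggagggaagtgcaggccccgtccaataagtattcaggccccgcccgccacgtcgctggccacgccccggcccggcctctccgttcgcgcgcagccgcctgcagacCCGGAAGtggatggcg
ZNF580: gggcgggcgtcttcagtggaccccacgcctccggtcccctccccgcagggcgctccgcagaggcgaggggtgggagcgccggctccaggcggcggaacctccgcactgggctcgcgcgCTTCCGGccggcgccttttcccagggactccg
ZNF446: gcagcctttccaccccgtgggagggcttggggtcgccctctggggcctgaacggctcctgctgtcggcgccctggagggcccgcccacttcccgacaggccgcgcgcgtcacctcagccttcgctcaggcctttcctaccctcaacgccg
ZNF143: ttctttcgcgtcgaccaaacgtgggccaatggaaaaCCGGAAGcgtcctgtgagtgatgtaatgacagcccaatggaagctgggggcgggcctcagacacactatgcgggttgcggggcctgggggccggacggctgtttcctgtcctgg

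Their places are chr19:52269457-52269606 (ZNF766), chr19:55640872-55641021 (ZNF580), chr19:58476222-58476371 (ZNF446) and chr11:9460882-9461031 (ZNF143), all on the plus strand. Of the 4, ZNF446 held neither word in the stretch, and ZNF143 held the ETS-type word on its upstream side. The 9-base word was found only on one side of the gap that holds the centromere of chromosome 19. Among members at chr19:2819568-24034104 it was in 50 of 69 promoters (72.5%), and among those at chr19:30372084-58477051 it was in 0 of 134. By cluster it was in 4 of 5 promoters at chr19:2819568-2945671, 19 of 23 at chr19:11505540-12611619, 10 of 10 at chr19:20565482-21506301 and 9 of 9 at chr19:21767280-23396171, but in 0 of 8 in the cluster that begins at chr19:9309539. The 13 carriers on other chromosomes included 6 on chromosome 7, among them ZNF92, ZNF138, ZNF479, ZNF680 and ZNF716. The ETS-type word did not keep to one arm and was in 39.1% of the promoters before the gap and 47.8% after it.

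**Figure D1:**
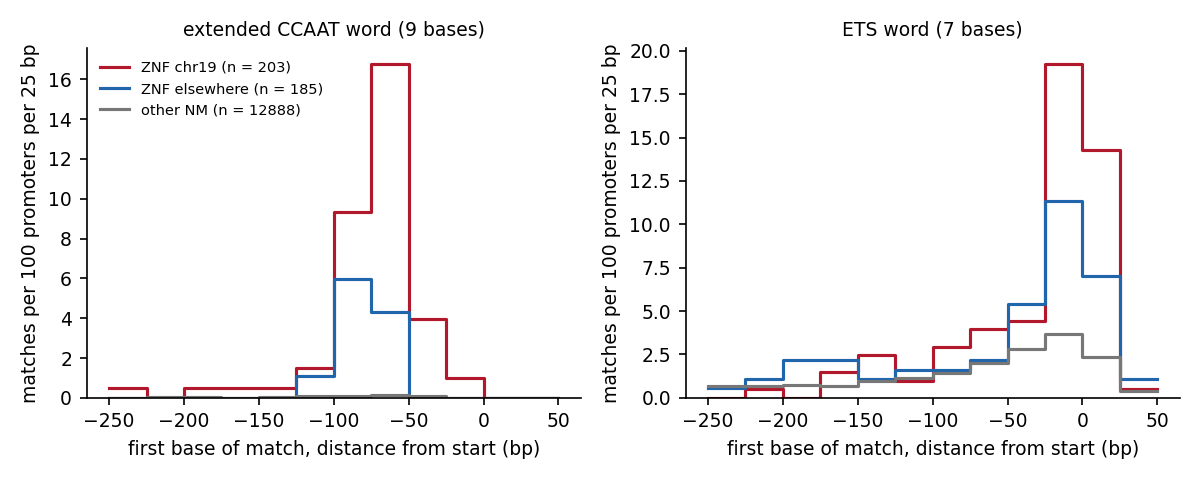
Positions of the extended CCAAT word (9 bases, left) and of the ETS-type word (7 bases, right) in promoters, as matches per 100 promoters in 25 bp steps against distance from the start in bp. Lines are ZNF promoters on chromosome 19 (n = 203), ZNF promoters elsewhere (n = 185) and promoters of other NM windows (n = 12888); on chromosome 19 the 9-base word has its median position at -60.5 and the ETS-type word at -19.0.

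Both words had narrow places. Of the 70 matches of the 9-base word in chromosome 19 ZNF promoters, 75.7% began between 100 and 50 bases before the start, with a median at -60.5. The ETS-type word had its median at -19.0 in these promoters and at -47.0 in other NM_ promoters. TATAAA was scarce, in 1.97% of chromosome 19 ZNF promoters and 3.78% of those elsewhere against 9.34% of all promoters. The plain CCAAT box was in 54.7% and 45.9% against 35.9% of all promoters. The median number of CpG pairs in the 300 bases was 20 on chromosome 19 and 24 elsewhere.

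The polymerase levels are based on 1000 bp windows, all of the same length, and are given in CPM (reads scaled to a common library total), adjusted by TMM, a method that sets the typical window equal between libraries. The windows of the ChIP libraries held 1290223 to 2240951 reads in all, and those of the inputs 161719 to 359276, so an input window rests on few reads. Windows did not follow the strand: most ran from 300 bp before to 700 bp after the start on the plus strand (167 of 207 members with a listed start there) and from 700 bp before to 300 bp after on the minus strand (156 of 181). For 91 of 483 members with RefSeq bounds, neither end of the gene lay in the window. Members named below with windows far from the nearest gene end include ZNF331 (33772 bp), ZNF185 (31111), ZNF18 (19634), ZNF391 (13803) and ZNF385C (12151). ZNF704 (9251 bp), ZNF444 (8434), ZNF648 (6843), ZNF705A (6793), ZNF584 (6791) and ZNF574 (4687) are others. In total 92 members overlapped another gene's window, 44 of them on chromosome 19, and 8 shared an exact window with another gene, so that their reads count for both. Of epithelial genes, KRT8, KRT18 and EPCAM stood at 241, 278 and 103 CPM in the ChIP, CDH1 at 49.5 CPM and the colon factor CDX2 at 30.0 CPM. The other 3 of these 8 epithelial and colon markers, KRT20, CDX1 and VIL1, stood at 4.56, 6.21 and 7.80 CPM. The 5 windows of genes of unrelated, silent tissues reached at most 6.90 CPM as a mean over the ChIP libraries. That value serves below as a yardstick for a silent window.

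ZNF windows on chromosome 19 carried less Ser5 polymerase than ZNF windows elsewhere in each of the 6 ChIP libraries. Their median ran from 11.1 to 14.7 CPM over the libraries, against 34.8 to 36.2 CPM elsewhere, and the ranges did not overlap. The ratio of the medians was 0.379 ± 0.0369 (SD, n = 6 libraries). Chromosome 19 as such was not low: the other NM_ windows on it had a median of 25.2 to 27.7 CPM, those on other chromosomes 25.2 to 26.3 CPM, and their ratio was 1.02 ± 0.0382 (SD, n = 6). ZNF windows elsewhere thus stood above the typical protein-coding window and those on chromosome 19 below it. These are descriptions over windows that share libraries, and no test was made between the classes.

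**Figure D2:**
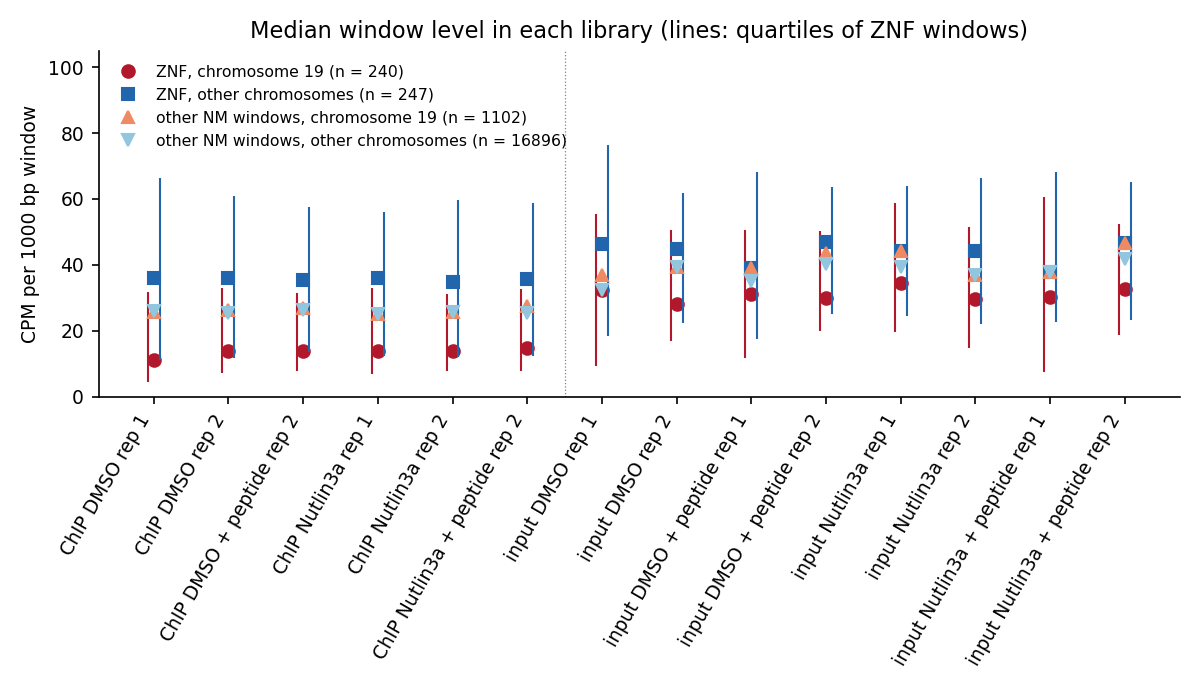
Median level per 1000 bp window (CPM, linear axis) in each of the 6 ChIP and 8 input libraries for 4 classes of window; vertical lines span the quartiles of the ZNF classes. In the ChIP libraries ZNF windows on chromosome 19 (11.1 to 14.7 CPM) lie below the other 3 classes and ZNF windows elsewhere (34.8 to 36.2 CPM) above them.

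The inputs moved the same way to a smaller degree. In the inputs chromosome 19 ZNF windows had medians of 28.1 to 34.4 CPM and those elsewhere 38.0 to 46.8 CPM, with a ratio of 0.714 ± 0.0702 (SD, n = 8). The sources used here do not say how reads that match several near-identical genes were counted, and the part of such reads in the levels was not tested. With each ChIP library set against its own input on the log2 scale, the median of chromosome 19 ZNF windows was still lower than that of the windows elsewhere, by -0.55 to -0.73 over the 6 pairs. For other NM_ windows the same difference ran from -0.17 to 0.05.

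Low windows were more frequent among the chromosome 19 members than among those elsewhere, and high windows less frequent. Of chromosome 19 members 58 of 240 (24.2%) were at or below the silent yardstick of 6.90 CPM, against 36 of 247 (14.6%) elsewhere. The share among other NM_ windows was 15.2% on chromosome 19 and 24.9% off it, and among all windows it was 32.1%, above both ZNF shares. A mean of at least 50 reads over the ChIP libraries was reached by 71 (29.6%) and 149 (60.3%), beside 40.7% of all windows. Among the ZNF members that reached it, the medians were 47.0 and 53.1 CPM, a ratio of 0.886. But this filter selects on the level itself and so draws the medians together. At the upper end, 8 chromosome 19 members (3.33%) and 28 of those elsewhere (11.3%) were among the highest 10.0% of all windows.

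Medians were higher in promoters with more CpG pairs in all of the classes compared here. In promoters with at least 25 CpG pairs the median was 22.4 CPM for 61 chromosome 19 members, 47.8 CPM for 91 members elsewhere and 49.4 CPM for other NM_ windows off chromosome 19. With 15 to 24 pairs the values were 15.8, 38.6 and 37.6 CPM. With fewer than 15 pairs they were 8.57, 7.29 and 5.61 CPM, so the medians of the ZNF windows poorest in CpG were low both on chromosome 19 and elsewhere. The part of CpG content in the difference was not tested.

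Most chromosome 19 members lie in clusters, and the medians there were lower than at its lone members. Members within 250 kb of the next formed 1 cluster, and 211 of the 240 chromosome 19 members lay in 13 clusters of 5 or more. Those 211 had a median of 12.7 CPM, the 17 in groups of 2 to 4 had 25.9 CPM and the 12 lone members 35.2 CPM. Elsewhere the same classes had 37.1 CPM (54 members), 35.2 CPM (60) and 36.0 CPM (133). At or below the silent yardstick were 55 of the 211 clustered members on chromosome 19 (26.1%), 2 of the 17 and 1 of the 12. In the same classes elsewhere they were 8 of 54 (14.8%), 7 of 60 and 21 of 133. Among all windows the share was 32.1%. A high cluster size went with a low level on chromosome 19 and not elsewhere, although single clusters elsewhere were as low, such as 7 members on chromosome 7 (chr7:64045134-64991736, median 5.76 CPM) and 7 on chromosome 12 (chr12:132956007-133182194, 8.30 CPM).

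**Figure D3:**
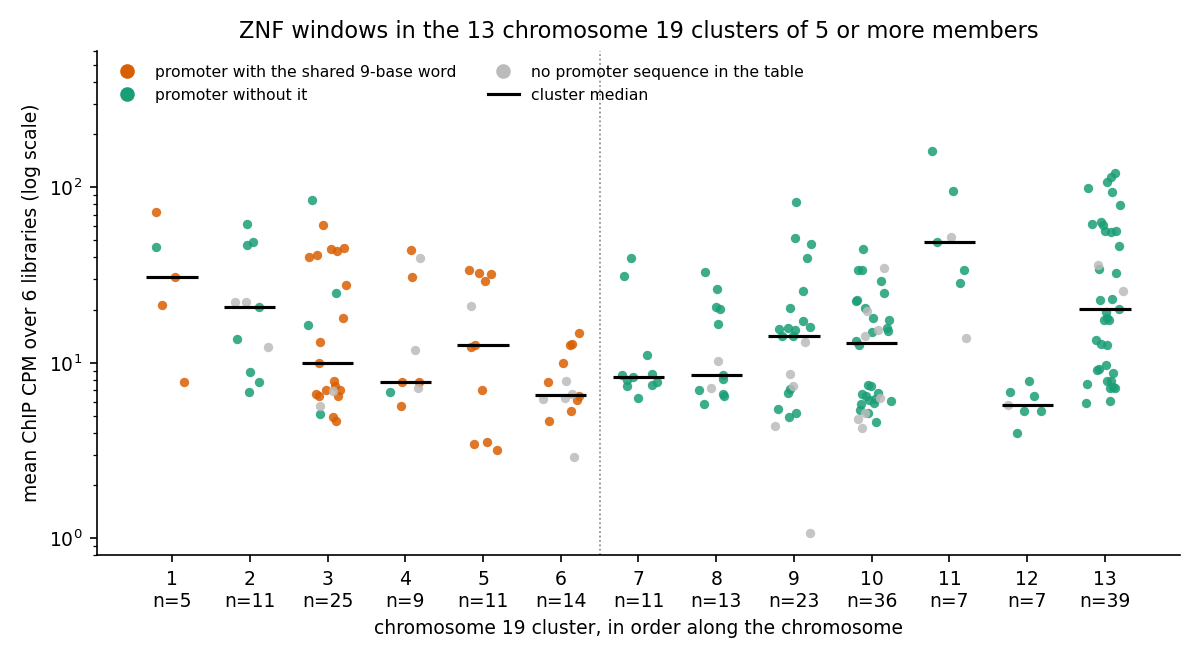
Mean ChIP level of each ZNF window (CPM over 6 libraries, log axis) in the 13 clusters of at least 5 members on chromosome 19, numbered in order along the chromosome, with the dotted line at the centromere gap and black bars at cluster medians. Orange points have the 9-base word in their promoter and occur left of the line only; cluster 12 has the lowest median (5.74 CPM) and cluster 11 the highest (48.8 CPM).

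The lowest and the highest clusters differed by more than the library spread, while many of those between them overlapped. The 7 members at chr19:56393235-56672457 had a median of 5.74 CPM (4.34 to 7.84 over the ChIP libraries) and lay between 4.00 CPM at ZNF71 and 7.88 CPM at ZNF470. The 14 members at chr19:21767280-23396171, which include ZNF91, had 6.56 CPM. The cluster between these extremes with the most members, 39 at chr19:57191200-58477051, had a median of 20.4 CPM and ran from 5.92 CPM at ZNF418 to 121 CPM at ZNF446. The 7 members at chr19:55476317-55644348 stood apart, with a median of 48.8 CPM (37.5 to 54.9) and the highest chromosome 19 member, ZNF580. The widest spread of the 13 clusters on the log scale was at chr19:43532888-44501222, from 1.08 CPM at ZNF404 to 82.6 CPM at ZNF428.

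The words went with level in different ways. On the short arm the 50 members with the 9-base word had a median of 9.96 CPM and the 19 without it 25.0 CPM. Of the short-arm clusters 3 held both classes, and the rest held only one of them. At chr19:11505540-12611619 the 19 with the word had a median of 9.95 CPM (4.68 to 60.7) and the 4 without it 20.7 CPM, the lowest of them at 5.13 CPM, so the ranges overlapped. The other 2 held 1 promoter each without the word, at 46.0 CPM beside a median of 26.1 CPM for 4 with it, and at 6.83 CPM beside 7.78 CPM for 5. The part of the cluster in the difference was not tested. ZNF20, with 1 copy, read 1.45 and 4.64 CPM in DMSO, 5.35 and 4.80 in Nutlin3a, 4.48 in DMSO with peptide and 8.92 in Nutlin3a with peptide. ZNF77, with 3 copies, read 62.7 and 94.8 CPM in DMSO, 56.6 and 70.8 in Nutlin3a, 69.4 in DMSO with peptide and 81.2 in Nutlin3a with peptide. Promoters that carry the word thus ranged from the silent yardstick to well above the typical window. For the ETS-type word, other NM_ windows off chromosome 19 stood at 58.1 CPM with it and 24.6 CPM without, while chromosome 19 ZNF windows stood at 12.8 and 15.5 CPM. ZNF windows elsewhere stood at 44.5 and 39.5 CPM.

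The 4 members with the most polymerase lay off chromosome 19, among them ZNF143 and ZNF706 with no other member within 250 kb. ZNF34, in a cluster of 5 on chromosome 8, was the highest, with 382 and 371 CPM in DMSO, 286 and 311 in Nutlin3a, 370 in DMSO with peptide and 375 in Nutlin3a with peptide. ZNF513 on chromosome 2, a regulator of retinal genes, read 219 and 227 CPM in DMSO, 156 and 218 in Nutlin3a, 242 in DMSO with peptide and 237 in Nutlin3a with peptide. ZNF143, an activator that binds many promoters itself, read 227 and 184 CPM in DMSO, 187 and 195 in Nutlin3a, 211 in DMSO with peptide and 206 in Nutlin3a with peptide. All 3 were high in every library, and for ZNF34 and ZNF513 the lowest library was replicate 1 of Nutlin3a. ZNF706 (169 CPM) was the fourth, and ZNF623 (156 CPM), also on chromosome 8, came after ZNF580. ZNF580, in a cluster of 7 and the highest on chromosome 19, read 168 and 166 CPM in DMSO, 135 and 151 in Nutlin3a, 174 in DMSO with peptide and 171 in Nutlin3a with peptide, and after it came ZNF446 (121), ZNF584 (114), ZNF497 (108) and ZNF574 (99.9 CPM). An antisense or divergent gene starts in the windows of ZNF143, ZNF497 and ZNF584, and without strand its reads cannot be told from theirs.

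At the lower end the levels were those of silent windows. On chromosome 19 the lowest tested members were ZNF66 (3.44 CPM), ZNF737 (3.55), ZNF71 (4.00), ZNF415 (4.27) and ZNF223 (4.36). Elsewhere they were ZNF474 (2.04), ZNF679 (2.37), ZNF705A (3.35), ZNF157 (3.51) and ZNF630 (4.02 CPM). ZNF679 had no read in any input, and 10.7 CPM in replicate 1 of Nutlin3a while the other 5 ChIP libraries lay between 0 and 1.45 CPM. Neighbours in these low orders differ by less than the spread between libraries.

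Set against input over all 14 libraries, ZNF windows elsewhere were higher more often than lower, and on chromosome 19 they were not. With edgeR's quasi-likelihood test and an adjusted p under 0.05, 21 chromosome 19 members were higher and 25 lower of 201 tested. Elsewhere 59 were higher and 13 lower of 222 tested. Over all 21504 windows tested, 25.1% were called higher and 15.5% lower, so on chromosome 19 the share called higher (10.4%) was below the background and the share called lower (12.4%) near it, while elsewhere 26.6% were higher, near the background, and 5.86% lower. The median log2 fold change was -0.43 on chromosome 19 and 0.16 elsewhere, against -0.04 for all windows. The zero of this scale is the typical window, since each library is scaled to its own reads. With DESeq2 size factors in place of TMM the split was 17 higher and 39 lower on chromosome 19 and 43 and 20 elsewhere, and with total counts it was 15 and 58, and 32 and 26. The 25 lower members on chromosome 19 fell to 12 without replicate 1 of the DMSO ChIP or without the replicate 1 Nutlin3a input, to 15 without replicate 2 of the Nutlin3a ChIP, to 16 without its replicate 1, and to 9 among windows that overlap no other. The 13 lower members elsewhere fell to 8 without the replicate 1 Nutlin3a input. The difference between the medians was -0.59 and ran from -0.71 to -0.40 with any 1 library left out. But among windows with a mean of at least 50 reads over all 14 libraries it was 0.055.

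**Figure D4:**
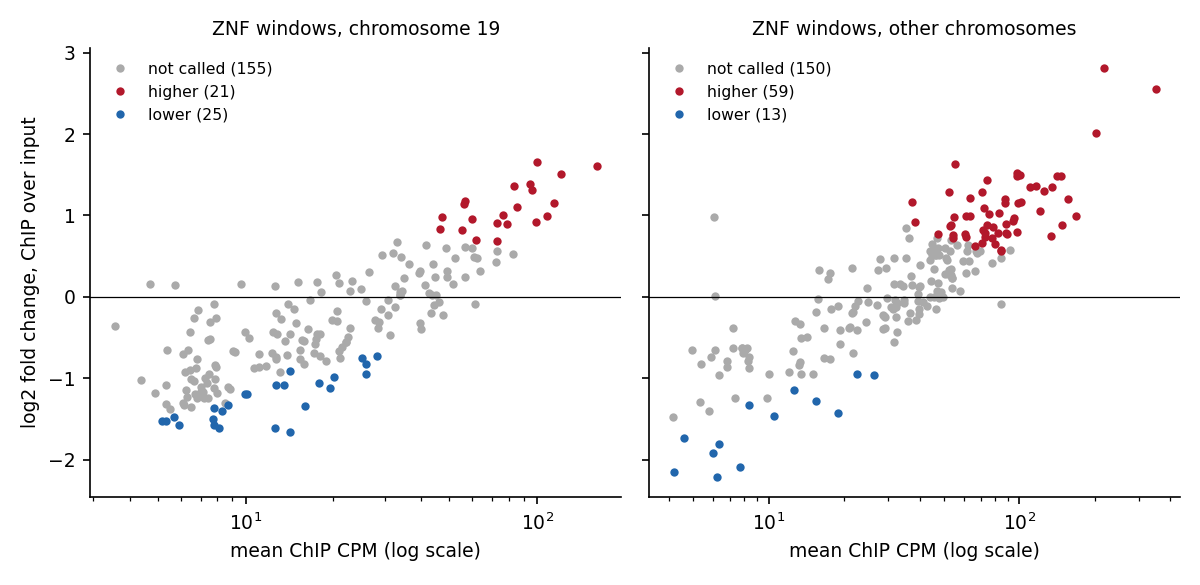
Log2 fold change of ChIP over input against mean ChIP level (CPM, log axis) for the tested ZNF windows on chromosome 19 (left, 201) and elsewhere (right, 222), coloured by the edgeR call. Members called higher number 21 and 59, and those called lower 25 and 13, with ZNF513, ZNF34 and ZNF143 as the 3 highest points on the right.

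ZNF513 had the largest difference from input, a log2 fold change of 2.81 ± 0.27 (SE; adjusted p = 3.36e-09), followed by ZNF34 at 2.55 ± 0.21 (9.27e-11) and ZNF143 at 2.01 ± 0.23 (6.39e-08). On chromosome 19 the leading members were ZNF574 (1.66), ZNF580 (1.60) and ZNF446 (1.51). ZNF598, the ubiquitin ligase that marks collided ribosomes, was at 1.52, and ZNF236, ZNF496 and ZNF398 were between 1.49 and 1.64. The windows of ZNF398 and ZNF425 overlap.

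Among members called lower, ZNF225 in the cluster at chr19:43532888-44501222 had 13.0 and 12.9 CPM in DMSO, 13.0 and 16.2 in Nutlin3a, 15.7 in DMSO with peptide and 14.7 in Nutlin3a with peptide, against 40.1 to 95.9 CPM in the inputs. Its ChIP values lie below all of its inputs. A mean ChIP below the mean input is common on this scale, where ChIP and input libraries were scaled as separate sets. A ratio of mean ChIP to mean input CPM of at least 1 was reached by 25.5% of all windows. How often all ChIP values lie below all inputs was not counted. Relative to the typical window, ZNF225 had a log2 fold change of -1.66 ± 0.31 (SE; edgeR adjusted p = 0.000126). A start of its antisense gene lies in the same window. ZNF80 (-2.21), ZNF705D (-2.15) and ZNF704 (-2.09) had the largest differences in that direction, and ZNF280A, ZNF736, ZNF648, ZNF585B, ZNF444 and ZNF432 were between -1.92 and -1.58. The call for ZNF432 rested on the replicate 1 Nutlin3a input, without which its log2 fold change was 0.19.

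Members were also grouped by role, and the calls against input in these small lists are read beside the 25.1% higher and 15.5% lower over all windows. The 7 ZNF genes with roles in ribosomes, RNA, the spindle or SUMO had library medians of 57.1 to 90.6 CPM in the ChIP. ZNF598, ZNF622 (a factor of 60S ribosome maturation, 0.77) and ZNF207 (the spindle protein BuGZ, 0.86) were called higher than input, and none of the 7 lower. Of 10 general activators and chromatin factors, 9 of them tested, ZNF143, ZNF148 (1.01), ZNF384 (1.03) and ZNF644 (a partner of the methyltransferases EHMT1 and EHMT2, 0.77) were higher, none was lower, and their library medians were 41.3 to 54.3 CPM. ZNF217, an oncogene of chromosome 20, was at 5.01 CPM, but its window at chr20:53582798-53583797 lies 13905 bp from the nearest end of the RefSeq gene.

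Genes that silence retrotransposons or guard imprints ranged widely. Library medians of these 9 ran from 16.1 to 23.2 CPM, near or above the 14.0 to 16.8 CPM of all windows, and none of the 7 tested against input was called. ZNF91, which represses SVA elements, read 10.1 and 11.9 CPM in DMSO, 13.8 and 11.4 in Nutlin3a, 14.6 in DMSO with peptide and 14.7 in Nutlin3a with peptide. ZNF93, which represses L1 elements, was at 5.69 CPM as a mean, ZNF10, the source of the KRAB domain used in CRISPR silencing, at 4.30, and ZNF445, which guards imprints, at 42.9 CPM. ZNF445 was the highest of the 9 and lies on chromosome 3. ZNF765 (33.8 CPM) shares its exact window with the readthrough gene ZNF765-ZNF761 and is uncertain.

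Lineage genes were mostly low. Library medians of the 8 ran from 6.51 to 14.2 CPM, and of the 7 tested against input 0 were called higher and 2 lower. ZNF304, described as a silencer of the INK4-ARF locus in colorectal cancer cells, was called lower (-1.12), and so was ZNF423 (-1.47), a cofactor of EBF proteins. ZNF521, a related factor of blood and fat cells, was at 4.15 CPM, ZNF331 at 6.67 and ZNF350 at 6.49 CPM, while ZNF703, a breast cancer gene, had 28.9 CPM and ZNF750, of epidermal differentiation, 22.5 CPM.

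The genes of the machinery that KRAB proteins recruit varied in level. Of 21 cofactor windows, 9 were called higher than input and 0 lower, against 25.1% and 15.5% of all windows, with a median log2 fold change of 0.64 beside -0.04 for all windows. TRIM28 was at 153 CPM (1.74), CBX3, an HP1 protein, at 121 CPM (1.65), and SETDB1 at 27.7 CPM (0.11, not called). DAXX (-0.54), ATF7IP (-0.19), EHMT2 (-0.13) and CBX1 (-0.03) were below 0 and not called. A list of 87 related zinc finger genes with ZSCAN, ZKSCAN, ZBTB or ZFP symbols had library medians of 29.8 to 33.5 CPM. Of its 80 windows tested against input 23 were higher and 10 lower, shares near those of all windows.

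Nutlin3a did not move any ZNF window past the threshold. Without peptide, 0 of 479 tested members were called in either direction by edgeR, against a background of 0.00772% called higher and 0.0% lower over 25901 windows. This background rested on 2 windows and moved with the libraries: 88 windows were higher without replicate 1 of DMSO, 37 higher and 2 lower without replicate 2 of Nutlin3a, 17 higher and 15 lower without its replicate 1, and 39 higher with the replicate block, while 0 were called without replicate 2 of DMSO or either peptide library. None of these calls was a member. DESeq2 called 0 members as well. At an unadjusted p under 0.05 edgeR gave 3 members higher and 0 lower (0.626% of those tested). Over all windows it gave 330 higher and 271 lower (2.32%). The median log2 fold change was 0.04 for the 236 tested on chromosome 19 and -0.05 for the 243 elsewhere, with 0.04 for all windows. The median half-width of the 95% interval, not adjusted for the number of windows, was 1.00 on chromosome 19 and 0.63 elsewhere. Changes under 2-fold at a typical chromosome 19 member were thus not detectable at this depth. Larger changes could miss the adjusted threshold too: ZNF569 on chromosome 19 had a log2 fold change of 1.55 and an edgeR adjusted p of 0.982. By replicate, the median log2 ratio on chromosome 19 was 0.17 in replicate 1 and -0.04 in replicate 2, and elsewhere -0.05 and 0.00. With the authors' own constants in place of TMM, the median of all windows moved from 0.04 to 0.53 and that of chromosome 19 members to 0.52, so directions are relative to the typical window. Nothing in the labels says that the replicates were separate cultures, so p-values measure the spread between these libraries.

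**Figure D5:**
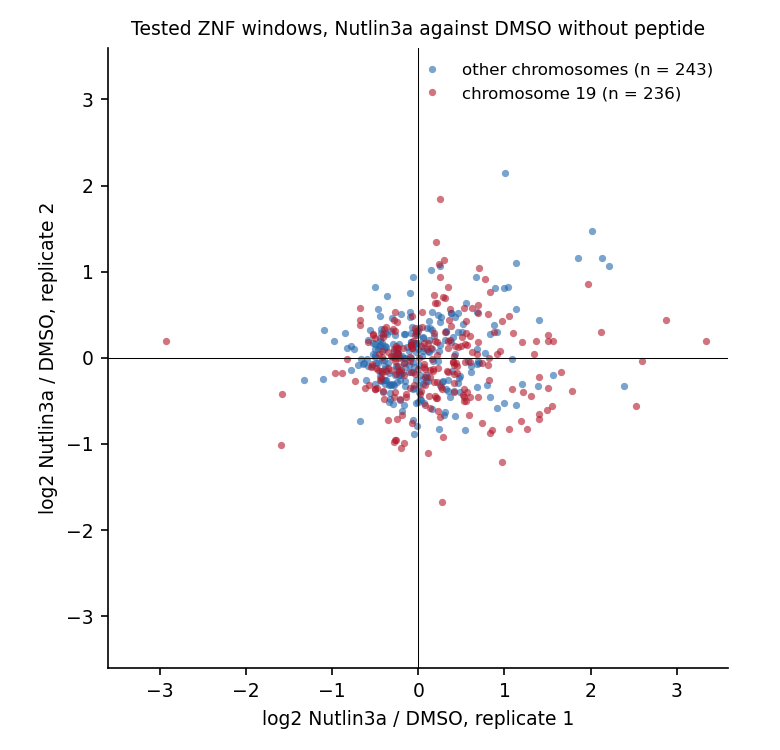
Log2 ratio of Nutlin3a to DMSO without peptide (TMM-scaled CPM, prior count 2) in replicate 2 against replicate 1 for 236 tested ZNF windows on chromosome 19 and 243 elsewhere. Points centre near 0 and spread more widely along replicate 1, whose Nutlin3a library had the fewest ChIP reads.

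The members with the smallest p in each direction are given as values. ZNF385A, whose protein is induced by p53 and steers it toward arrest genes, read 10.1 and 8.25 CPM in DMSO and 16.8 and 16.8 in Nutlin3a, with 11.2 and 12.0 CPM in DMSO and Nutlin3a with peptide. The Nutlin3a values without peptide lie above both DMSO values, but the gene is among those with the smallest p in this same comparison. The log2 fold change was 0.87 ± 0.48 (SE; unadjusted p = 0.0873, adjusted p = 0.982). Its paralogue ZNF385B read 13.5 and 11.9 CPM in DMSO, 26.0 and 21.6 in Nutlin3a, and 17.9 and 14.3 with peptide, a log2 fold change of 0.90 ± 0.41 (adjusted p = 0.982); the gene MIR1258 overlaps that window. ZNF569, whose window overlaps that of ZNF570, read 1.93 and 5.15 CPM in DMSO and 10.7 and 10.2 in Nutlin3a, near the silent yardstick.

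ZNF705G and ZNF705B on chromosome 8, near-identical copies in which reads may be split, had 8 and 3 reads in DMSO, and 27 and 8 (ZNF705G) or 22 and 8 (ZNF705B) in Nutlin3a. Their counts are too low and too alike to be read as separate genes. In the other direction ZNF18 read 101 and 114 CPM in DMSO and 79.5 and 79.8 in Nutlin3a, with 110 and 99.9 CPM with peptide (log2 fold change -0.43 ± 0.22, adjusted p = 0.982). The ZNF18 window lies 19634 bp from the nearest end of the RefSeq gene. ZNF121, in the cluster that begins at chr19:9309539, read 69.0 and 73.7 CPM in DMSO and 52.0 and 52.8 in Nutlin3a, with 58.8 and 63.8 CPM with peptide. In both genes the groups without peptide do not overlap, but both were named for a small p in this same comparison. The separation is thus no further evidence, and neither passed the adjusted test. ZNF414 (-0.43), ZNF333 (-0.57) and ZNF491 (-1.44) complete that direction.

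Of the other members linked to p53, ZNF79 read 64.1 and 70.1 CPM in DMSO, 80.3 and 87.6 in Nutlin3a, 57.7 in DMSO with peptide and 84.7 in Nutlin3a with peptide. Its 3 Nutlin3a values lie above its 3 DMSO values, at a log2 fold change without peptide of 0.32 ± 0.21 (95% interval -0.13 to 0.78, adjusted p = 0.982). ZNF365, induced by p53 at damaged telomeres, was at 0.22 ± 0.43, ZNF346, which binds double-stranded RNA, at 0.05 ± 0.24, ZNF561 at -0.03 ± 0.27 and ZNF668 at -0.36 ± 0.26. The sign for ZNF561 turned under several settings. ZNF420, a KRAB protein that restrains p53, is listed under a noncoding accession and is not a member. Of the 21 KRAB cofactors 4 had a log2 fold change above 0 and 0 were called. Above 0 were 14002 of all 25901 windows tested, and 7687 of 15915 other NM_ windows off chromosome 19. In 2 of the role lists the count was low too, at 1 of 7 for ribosome, RNA, spindle and SUMO roles and 2 of 10 for general activators. It was 5 of 7 in the list linked to p53.

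The peptide likewise left every ZNF window short of the threshold. No member was called where the Nutlin3a response with peptide was set against that without it, nor for the peptide under DMSO or Nutlin3a. DESeq2 called 0 members in each. At an unadjusted p under 0.05 edgeR gave 2 members above and 4 below (1.25%) for the difference between responses. Over all windows it gave 107 and 166 (1.05%). For the peptide under DMSO the members were 1 and 5 (1.25%), and all windows 178 and 215 (1.52%). Under Nutlin3a the members were 0 and 5 (1.04%), and all windows 146 and 486 (2.44%). At the adjusted threshold the background was 0.0% in each of these comparisons and both directions. This background too moved when 1 library was left out. For the peptide under Nutlin3a 77 windows were lower without replicate 1 of DMSO, 96 without its replicate 2, 2 without replicate 1 of Nutlin3a, and 131 lower with 8 higher without its replicate 2, while the authors' constants gave 55 lower. For the peptide under DMSO 53 were lower without replicate 2 of DMSO and 24 without replicate 1 of Nutlin3a. For the difference between responses 34 were lower without replicate 1 of DMSO, and 5 without replicate 2 of Nutlin3a or with the replicate block. Every peptide group is 1 library and was assumed to vary like the pairs, and the peptide comparisons under Nutlin3a share libraries with the Nutlin3a comparison. Both peptide libraries are from replicate 2 but were set against the mean of both replicates without peptide. Differences between the replicates can thus enter the contrasts of peptide against no peptide under DMSO and under Nutlin3a. The replicate block was not fitted for these contrasts. With peptide the median log2 ratio of Nutlin3a to DMSO was 0.07 on chromosome 19 and 0.01 elsewhere, from 1 library against 1, with no test.

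For the difference between responses, ZNF207 had the smallest p among members on the higher side, at 1.04 ± 0.41 (SE; unadjusted p = 0.0208, adjusted p = 1.00). It read 96.4 and 84.0 CPM in DMSO, 85.6 and 57.0 in Nutlin3a, 56.0 in DMSO with peptide and 90.5 in Nutlin3a with peptide. Replicate 2 of Nutlin3a and the DMSO library with peptide were the low ones. ZNF628 followed at 0.96 ± 0.43, and ZNF185, ZNF443 and ZNF543 were between 0.89 and 1.49. On the lower side ZNF865 was at -2.03 ± 0.80, with 9.16 and 13.4 CPM in DMSO, 16.8 and 12.6 in Nutlin3a, 24.1 in DMSO with peptide and 7.58 in Nutlin3a with peptide. ZNF334 (-3.00 ± 1.23) and ZNF615 (-2.42 ± 1.15) were at or near the silent yardstick.

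Under DMSO alone, the peptide library was highest at ZNF90, with 15.1 CPM against 2.41 and 5.15 CPM without peptide (log2 fold change 1.99 ± 0.74, SE; unadjusted p = 0.0154, adjusted p = 1.00). ZNF506 (1.39), ZNF629 (0.68) and ZNF385C (1.43) lay on the same side, and ZNF704 (-2.16), ZNF449 (-1.11), ZNF548 (-1.17) and ZNF543 (-0.74) on the other. ZNF449 and ZNF75D overlap. Under Nutlin3a the peptide library stood above both libraries without it at ZNF24 (0.60 ± 0.30), ZNF391 (0.99 ± 0.51), ZNF736 (1.77 ± 0.91), ZNF185 (0.88 ± 0.48) and ZNF653 (0.51 ± 0.28). ZNF649, of the list of retrotransposon silencers, was at 6.24 CPM with peptide and 16.1 and 13.8 CPM without.

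The remaining members with a small p there had almost no reads. The peptide library under Nutlin3a held 0 reads for ZNF705G, ZNF705B and ZNF217 and 3 for ZNF705E, where the Nutlin3a libraries held 27 and 8, 22 and 8, 27 and 1, and 23 and 10. Fitted fold changes of windows at 0 are not bounds and are not given. ZNF217 had 15 and 27 reads in the replicate 1 libraries of DMSO and Nutlin3a and 0 to 2 in the other 4 ChIP libraries, so its reads went with the replicate number and not with treatment. ZNF705G passed the threshold for the peptide under Nutlin3a (adjusted p = 0.0478) when replicate 2 of DMSO was left out, and no other member passed in any of these 4 comparisons under any setting tried.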

How the data were processed

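Ser5 polymerase ChIP-seq (6 libraries) and input (8 libraries) were compared in HCT116 cells. The authors deposited raw read counts in 1 window per gene, on hg38 per the submitters' processing notes. Aligner, counting tool and read filters are not given in the sources used here. A scaled signal was deposited too, per the file headers, and its values are the counts times 1 constant per ChIP library (0.595 to 1.82); it entered only as an alternative scaling. No sample column was left unused. Totals were 1290223 to 2240951 (ChIP) and 161719 to 359276 (input).

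Groups came from the titles. Counts were fitted over all windows with edgeR 4.0.16 (R 4.3.3; glmQLFit, glmQLFTest, TMM, filterByExpr with a minimum count of 10), with Benjamini-Hochberg adjustment over all tested windows and a threshold of 0.05. The 6 ChIP libraries were fitted as 4 group means (2 residual degrees of freedom, biological coefficient of variation 26.0%), which gave 4 contrasts, and 1 fit of 8 group means to 14 libraries gave ChIP against input. Ratios between libraries used TMM-scaled CPM with a prior count of 2. DESeq2 1.42.0, other scalings, filters, windows without overlap, a replicate block and each library left out were alternatives. The fits were tested on simulated data. The rule for members used accession and symbol only, but the rule, the gene lists and the comparisons were set with earlier results of these data known. Named genes are members past the threshold (at most 10 per direction), otherwise the 5 with the smallest p per direction, the 5 highest and lowest by level and by ChIP over input, and the role lists. Promoters were RefSeq's (GRCh38.p14, 250 bases before to 50 after the start), matched by symbol; 483 of 487 symbols were in RefSeq. Protein sequences were not used here, and 1 marker window is not reported. Intervals are 95% intervals.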

Additional observations from a re-analysis of the deposited data

Results flagged for a closer look

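At 14 of the named ZNF windows the log2 ratio of Nutlin3a to DMSO had one sign in both replicates without peptide and the opposite sign in the pair with peptide. The share of all windows with this pattern is not given here, so the count of 14 is not a result about ZNF windows. The values are the ratio with peptide minus the mean ratio of the replicates without it. The ratio was higher with peptide at ZNF121 (0.55), ZNF185 (1.56), ZNF207 (1.04), ZNF333 (0.62), ZNF414 (0.45), ZNF443 (1.45), ZNF543 (0.87) and ZNF628 (0.95). It was lower with peptide at ZNF334 (-2.48), ZNF385B (-1.16), ZNF569 (-1.69), ZNF615 (-2.11), ZNF705B (-3.34) and ZNF705G (-4.00). In the edgeR fit no such difference passed the threshold (adjusted p = 1.00), the pair with peptide is 1 library against 1, and these windows were named for small p-values in the same comparisons. ZNF705B and ZNF705G are near-identical copies with 0 reads in the Nutlin3a library with peptide.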

How the results depend on the processing

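Calls of 0 ZNF windows for Nutlin3a, for the difference between responses and for the peptide under DMSO held in every alternative run. With any 1 library left out the count stayed at 0 there and was 0 to 1 for the peptide under Nutlin3a, the 1 being without replicate 2 of DMSO. For ChIP against input, leaving out 1 library gave 17 to 29 higher and 12 to 32 lower on chromosome 19, and 41 to 66 higher and 8 to 18 lower elsewhere. DESeq2 size factors gave 39 lower on chromosome 19 and 20 elsewhere, total counts gave 58 and 26 lower with 32 higher elsewhere, and the DESeq2 test gave 42 and 21 lower. A mean of at least 50 reads over all 14 libraries left 1 higher and 2 lower on chromosome 19 and 3 higher and 3 lower elsewhere. With this filter 904 windows were higher and 657 lower of 6453 tested. The median log2 fold change was then -0.045 on chromosome 19 and -0.10 elsewhere. What lowered the counts was not tested. Windows without overlap left 9 lower on chromosome 19. The ratio of median ChIP levels between chromosome 19 and elsewhere (0.378) ran from 0.377 to 0.396 with 1 library left out. It was 0.886 at a mean of at least 50 reads over the ChIP libraries. The difference in median log2 ChIP over input was -0.59 and ran from -0.71 to -0.40 with 1 library left out. At a mean of at least 50 reads over all 14 libraries, which keeps a different set of windows, this difference reversed to 0.055. The planned setting without a filter could not change the ratio, which already covers all members; the tested windows alone, added after seeing the data, gave 0.379. Replicate numbers are shared by DMSO and Nutlin3a, and deviations of same-numbered libraries correlated at 0.45 over 25901 windows, but with 2 pairs and no label of a shared batch the number was not taken as a pairing; the replicate block gave 0 calls for Nutlin3a and for the difference between responses, and 22 higher and 20 lower on chromosome 19 against input, 58 and 13 elsewhere, with a difference of -0.66.

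Of 952 values of named genes under alternatives, 941 kept their direction. Many of these genes were named for a small p or a large difference in the main fit, and the alternatives reuse its libraries. A kept direction is thus no independent evidence. With the authors' constants the Nutlin3a log2 fold changes of ZNF18 (0.081), ZNF121 (0.059), ZNF414 (0.034), ZNF668 (0.00894) and ZNF561 (0.45) turned positive. ZNF561 was also positive with total counts (0.037) and at a mean of at least 50 reads (0.11), and ran from -0.23 to 0.21 with 1 library left out. In the same way ZNF346 ran from -0.11 (without replicate 2 of DMSO) to 0.25, and ZNF432 against input from -1.89 to 0.19 (without the replicate 1 Nutlin3a input). The cause was not tested. Input depth limits every value against input, and the peptide groups have no replicate.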
